A study of Sus scrofa with 32 samples.

Results

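IGF2, the gene of insulin-like growth factor 2, was described in liver and fat of Złotnicka White pigs, a native Polish breed, with high (HFD) or low (LFD) fat deposition. It was taken as the row with the identifier ENSSSCG00000035293, 1 of 31908 genes listed in the deposited count tables. All pigs were female and, by the labels, 180 days old, were kept under the same feeding and housing, and were slaughtered at a common body weight. They had come from different farms, and the paper reports a lower daily gain in its HFD than in its LFD pigs. For genotype groups of its larger set of Złotnicka White pigs the paper gives mean slaughter ages above the labelled age. Age at slaughter may therefore also have differed between HFD and LFD pigs. RNA-seq was available for 32 libraries, 8 HFD and 8 LFD from liver and 8 HFD and 8 LFD from fat. The groups had been chosen by fat measured after slaughter and no treatment was given. Growth rate, any difference in age and other traits that vary with fatness thus cannot be told apart from the group. The fat depot that was sampled is not given in the sources used here.

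IGF2 is a secreted peptide hormone that promotes growth, above all of the fetus, and signals mainly through the receptors IGF1R and INSR. IGF2R takes it up for degradation, and a family of binding proteins carries it in blood and tissue. The gene is imprinted, with the paternal copy active in most tissues, and in the pig it is known for an influence on muscle growth and fatness. Pig liver goes on producing it after birth, and fat tissue makes it too.

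In Sscrofa11.1 the RefSeq annotation places IGF2 on the minus strand of chromosome 2, from 1469183 to 1496417, a span of 27235 bases. It lists 17 transcripts with 25 distinct exons and 15 distinct 5′ ends, the latter spread between 1475199 and 1496417, while the coding part runs from 1472345 to 1479816. The deposited value is 1 count per gene and library, so transcripts from different promoters could not be separated. No other RefSeq gene overlapped IGF2, although INS, the insulin gene, lies 424 bases away, at 1496842 to 1498052. INS had 11 counts over 7 liver libraries and 0 in fat, which allows up to 3 counts in all, and TH, tyrosine hydroxylase, the next gene along, had 92 counts over 14 liver libraries and 0 in fat. Reads of these neighbours were thus few beside the 290507 IGF2 counts of the liver libraries and the 34647 of the fat libraries.

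Liver libraries held 19837882 to 30457374 counts and fat libraries 9409976 to 19484621. In 3 libraries a few genes took much of the total: the 10 most counted genes held 80.9% of the counts of fat HFD replicate 2, 42.2% of fat LFD replicate 4 and 47.2% of liver LFD replicate 7. The comparisons of IGF2 are given with and without them. The labelled tissues carried their markers: the summed level of 7 adipocyte genes was 10261 to 17719 CPM (counts scaled by library size, here after TMM scaling within the tissue) in fat and 9.28 to 52.6 in liver. That of 10 liver genes was 137410 to 186960 in liver and 167.1 to 1603 in fat, or at most 475.1 in fat without the libraries led by few genes. The lowest adipocyte sum in fat was that of HFD replicate 2.

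IGF2 was counted in all 32 libraries. Liver libraries held 11758 to 26722 IGF2 counts with a median of 17989. Fat libraries held from 365 counts, in HFD replicate 2, to 4710, in LFD replicate 7. At these numbers the counting error alone averaged 0.755% of the value in liver and 2.56% in fat, and reached 5.23% in fat HFD replicate 2, whose 365 counts have an exact 95% Poisson interval of 329 to 404. The differences between libraries described next were several times larger than this error, which covers counting only.

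The sharpest contrast of IGF2 lay between the tissues. After joint TMM scaling of all 32 libraries, the level in liver ran from 679.3 CPM in HFD replicate 6 through a median of 919.8 to 1173 in HFD replicate 3. In fat it ran from 51.3 in HFD replicate 5 through a median of 97.03 to 166.3 in LFD replicate 7. The tissues did not overlap, and the lowest liver library stood 4.09 times above the highest fat library. Ordered by mean, the groups were liver LFD at 915.5 ± 84.9 CPM (SD, n = 8), liver HFD at 889.5 ± 154.7, fat LFD at 106.7 ± 33.4 and fat HFD at 88.7 ± 34.9. Neighbours within a tissue differed by less than their SD.

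**Figure D1:**
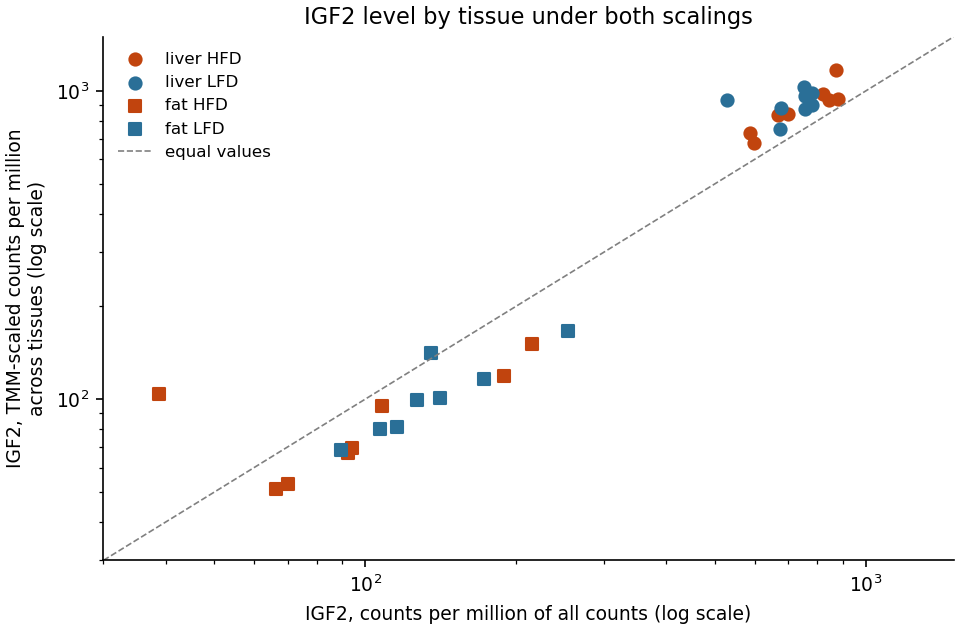
IGF2 in each of the 32 libraries, with CPM of the total counts on the x axis and CPM after joint TMM scaling on the y axis, both on log scales, and a dashed line where both are equal. On both axes all 16 liver points lie above all 16 fat points, and fat HFD replicate 2 is at 38.8 on the x axis and 104.3 on the y axis.

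IGF2 was lower in fat than in liver by a log2 fold change of -3.21 (SE 0.150, 95% interval -3.52 to -2.91), that is 9.28-fold higher in liver (95% interval 7.51 to 11.5), with an adjusted p of 8.88e-20 in edgeR's quasi-likelihood test with Benjamini-Hochberg adjustment. A call of this kind was common, since 79.4% of the 14324 genes tested differed between the tissues, 38.5% being higher and 40.9% lower in fat, and DESeq2 called 67.6% of its genes. The size depended on the scaling between such unlike tissues. By total counts the log2 fold change was -2.55, or 5.84-fold higher in liver (95% interval 4.48 to 7.61), but this scaling also moved the median of all genes to 0.64 from -0.02. Relative to that median IGF2 was at -3.18, against -3.19 with TMM. This near match cannot decide between the scalings, because a change of scaling moves all genes almost alike. On total counts the tissues still did not overlap, with 528.9 CPM in the lowest liver library and 253.9 in the highest fat library. Without the 3 libraries led by few genes the log2 fold change was -3.24.

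The tissues were sequenced on different lanes, according to the column headers, so tissue and lane cannot be told apart in this contrast. Both tissues may have been taken from the same pigs, which the labels leave unsaid. The paper's RNA-seq experiment included 16 pigs, 8 HFD and 8 LFD, which are also the numbers of libraries of each tissue. The tests across tissues took all 32 libraries as independent, although these need not be 32 animals. In whole tissue, fewer cells of a type and less RNA per cell cannot be told apart either. Liver genes were present in fat at a low level: if the liver markers counted in a fat library had come with liver IGF2 in the ratio found in liver, they would account for 0.587% to 6.21% of its IGF2 counts, with a median of 1.02%. The highest share was that of fat HFD replicate 2, and the highest among the other 15 was 1.92%.

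The study's main contrast was between HFD and LFD pigs. In liver, IGF2 in HFD pigs ran from 555.3 CPM (TMM-scaled within liver) in replicate 6 through a median of 719.6 to 948.9 in replicate 3. In LFD pigs it ran from 610.7 in replicate 8 through a median of 748.9 to 824.6 in replicate 2. The groups overlapped throughout: 4 of 8 HFD livers were below the LFD median, all 8 LFD livers lay within the HFD range, and an HFD liver was the higher in 25 of 64 HFD-LFD pairs. The means were 719.6 ± 125.0 CPM in HFD and 739.6 ± 67.2 in LFD pigs (SD, n = 8 each).

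**Figure D2:**
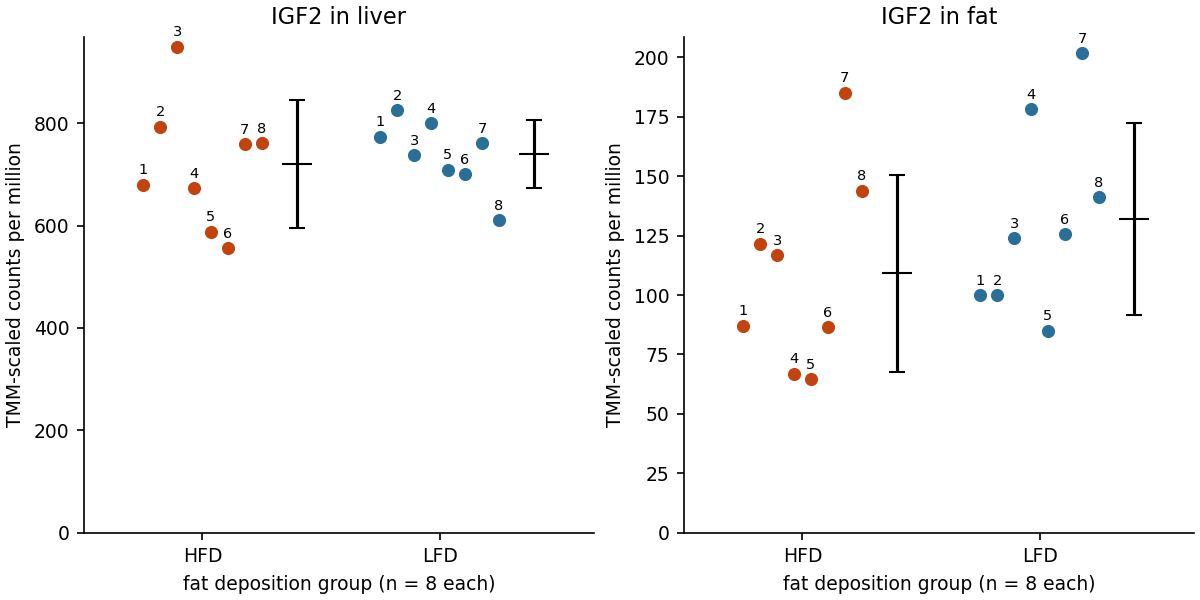
IGF2 in TMM-scaled CPM, scaled within each tissue, for the 8 HFD and 8 LFD libraries of liver and of fat, with separate axes from 0 for each tissue. Points are libraries, with the mean and SD of each group beside them. HFD and LFD points overlap in both tissues, at 555.3 to 948.9 against 610.7 to 824.6 in liver and at 64.5 to 185.1 against 85.0 to 201.8 in fat.

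No difference of IGF2 between HFD and LFD livers was detected. The log2 fold change of HFD over LFD was -0.04 (SE 0.107, 95% interval -0.26 to 0.18), with an unadjusted p of 0.715 and an adjusted p of 0.964 in edgeR's quasi-likelihood test. The interval spans a change from 16.6% lower to 13.5% higher in HFD pigs. The exact two-sided permutation test gave a p of 0.695 for the difference in means of -20.0 CPM. The direction was not stable, since total count scaling gave 0.06, where the median of all genes moved to 0.10, and leaving out HFD replicate 6 gave 0.01. Without LFD replicate 7, the liver library led by few genes, the log2 fold change was -0.03 (unadjusted p = 0.819, edgeR). Across the liver, 0 of 13051 genes (0%) passed edgeR's test, 754 had an unadjusted p under 0.05, and DESeq2 called 5 (0.0226%) and limma-voom 1.

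In fat, the levels were lower and the spread wider. IGF2 in HFD pigs ran from 64.5 CPM (TMM-scaled within fat) in replicate 5 through a median of 102.0 to 185.1 in replicate 7. In LFD pigs it ran from 85.0 in replicate 5 through a median of 124.8 to 201.8 in replicate 7. Although 6 of 8 HFD libraries were below the LFD median, 6 of 8 HFD libraries also lay within the LFD range and 7 of 8 LFD libraries within the HFD range. An HFD library was the higher in 21 of 64 HFD-LFD pairs. The means were 109.1 ± 41.3 CPM in HFD and 131.9 ± 40.5 in LFD pigs (SD, n = 8 each).

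The lower mean in fat of HFD pigs did not exceed the spread between pigs. The log2 fold change was -0.27 (SE 0.228, 95% interval -0.75 to 0.20), with an unadjusted p of 0.243 and an adjusted p of 0.898 in edgeR's quasi-likelihood test. The interval reaches from 40.7% lower to 15.2% higher in HFD pigs. The exact two-sided permutation test gave a p of 0.281 for the difference in means of -22.9 CPM. The value stayed below 0 whichever library was left out, but moved to -0.42 without HFD replicate 7 and to -0.16 without LFD replicate 7. Without HFD replicate 2 and LFD replicate 4, the libraries led by few genes, it was -0.23. Across fat, 0 of 13082 genes (0%) passed edgeR's test, 870 had an unadjusted p under 0.05, and DESeq2 called 49 (0.294%) and limma-voom 1. Without the libraries led by few genes edgeR called 1 gene in fat.

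Values of cell type markers stand beside this comparison. The summed level of 5 genes of the fibroblast list (COL1A1, COL1A2 and COL3A1, which encode fibrillar collagen chains, DCN, a matrix proteoglycan, and PDGFRA, a receptor of mesenchymal cells) was 12514 to 28845 CPM in HFD and 14454 to 24809 in LFD fat (TMM-scaled), with medians of 14716 and 19184. The highest HFD value was that of replicate 2, and without HFD replicate 2 and LFD replicate 4 the ranges were 12514 to 17566 and 14454 to 22456. Spearman correlations of these genes with IGF2 over the 16 fat libraries lay between 0.20 and 0.50, and over the 14 other libraries between 0.11 (COL3A1) and 0.56 (DCN), as a description with no test. Skeletal muscle markers, which would show muscle attached to a sample, summed to at most 2.99 CPM in liver and 2.93 in fat, apart from 14.3 in fat HFD replicate 2. The 7 adipocyte genes summed to medians of 14882 CPM in HFD and 15630 in LFD fat. Their correlations with IGF2 over the 16 fat libraries were -0.52 (LEP) to 0.29 (ADIPOQ). For 2 endothelium genes the medians were 801.8 and 688.2 CPM, with correlations of 0.05 and 0.15. For macrophage genes they were 88.2 and 66.8 CPM, with correlations of -0.29 to 0.02 for the 3 tested. The part of fibroblasts, adipocytes or other cell types in the IGF2 values was not tested.

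The response to fat group was also compared between the tissues. The log2 fold change of HFD over LFD in fat minus that in liver was -0.23 (SE 0.276, 95% interval -0.79 to 0.34), with an adjusted p of 0.966 in edgeR's quasi-likelihood test of the interaction. No difference between the tissues in how IGF2 varied with fat group was detected. Among the 14324 genes tested, 0 (0%) passed this test in edgeR, 896 had an unadjusted p under 0.05, and DESeq2 called 45 (0.279%) and limma-voom 0. Without the 3 libraries led by few genes the value for IGF2 was -0.19, and edgeR called 1 gene.

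**Figure D3:**
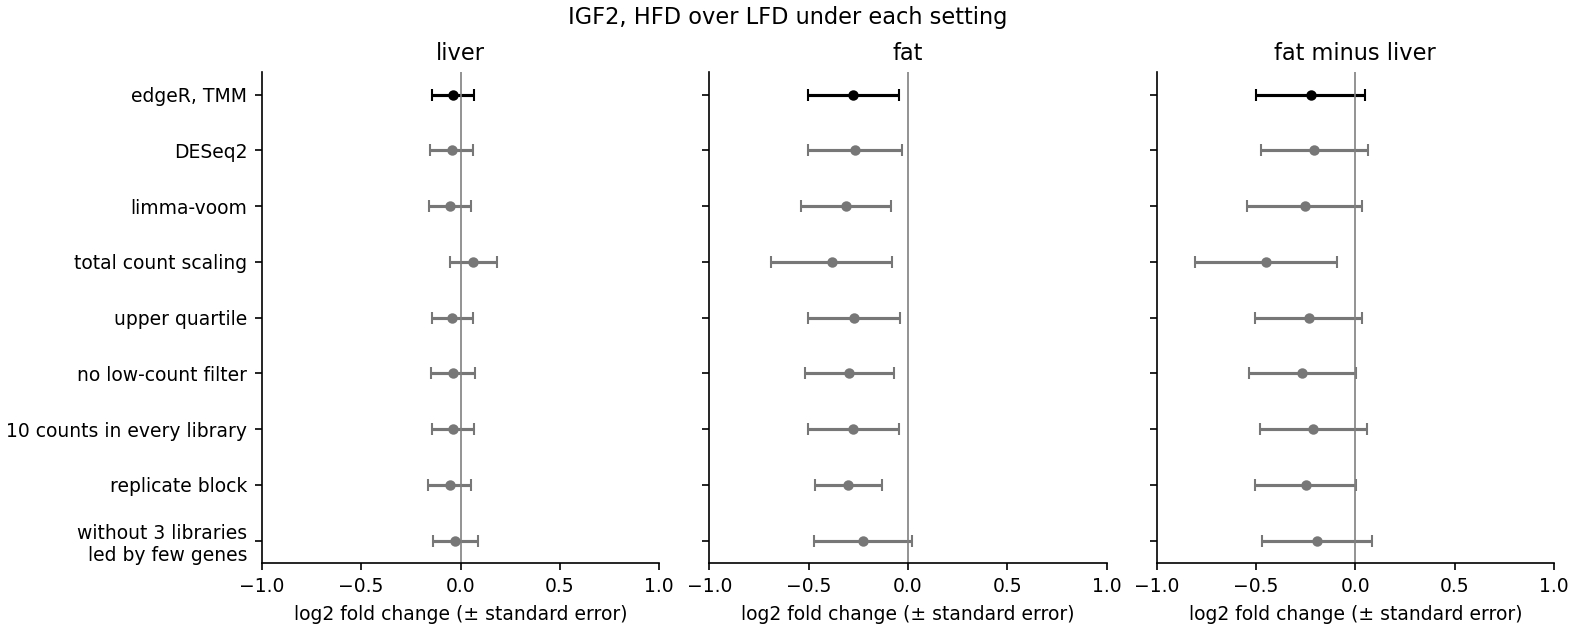
IGF2 log2 fold change of HFD over LFD in liver (left), in fat (middle) and the difference of fat minus liver (right) under 9 ways of processing the counts, with bars of 1 standard error and a vertical line at 0. In liver the points lie between -0.05 and 0.06, with total count scaling alone above 0. In fat all points lie below 0, between -0.38 and -0.23, and the differences lie between -0.45 and -0.19.

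The spread of IGF2 between pigs was also described. Over 16 livers the mean was 729.6 ± 97.5 CPM (coefficient of variation 13.4%), and the highest library was 1.71 times the lowest. Over 16 fat libraries it was 120.5 ± 41.2 CPM (34.2%), and the highest was 3.13 times the lowest. The biological coefficient of variation that edgeR estimated for IGF2, which leaves out counting error, was 0.179 in liver and 0.326 in fat. Read against genes of a similar count, liver IGF2 was below the trend of 0.259 and fat IGF2 above its trend of 0.296. In liver 35.7% of genes had a lower value than IGF2, and in fat 68.8%. The difference in spread between the tissues was not tested.

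The 2 sequencing runs of every liver library showed how far IGF2 differed between runs. The labels do not say whether the same prepared library was sequenced again or a new one was made. Whether the difference includes error of library preparation is therefore not known. The first run held 3189 to 7681 IGF2 counts and the second 8569 to 19041. The share of IGF2 in the second run was 0.940 to 1.04 times that in the first, and the runs of a library differed by a median of 1.84% and at most 5.98%, in LFD replicate 3. A chi-square test on the counts found the runs to differ by somewhat more than sampling noise (chi-square 38.96 on 16 degrees of freedom, p = 0.0011), of which LFD replicate 3 alone gave 16.7. Between libraries the same statistic was 358.4 per degree of freedom, against 2.44 per library between runs. Both were taken on shares of the total counts without TMM scaling. The value between libraries thus also holds differences in what else was counted, as in LFD replicate 7, and is not a measure of the spread of IGF2 alone. The HFD over LFD log2 fold change was -0.03 from the first run alone and -0.04 from the second.

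The other genes of the IGF system give the setting of IGF2 in these tissues. Of 29 listed genes besides IGF2, 25 were found in the tables, and IGFBP3, H19, MRPL23 and ZBED6 were not analysed here. Levels are not compared between genes, because gene length was not accounted for. Between the tissues 21 of the 25 were tested, of which 12 were higher in fat, 6 were lower and 3 did not pass edgeR's adjusted p of 0.05, beside 38.5% higher and 40.9% lower (79.4% in all) among all genes tested. Their median log2 fold change of fat over liver was 0.39, against -0.02 over all genes tested.

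Among the ligands, IGF1, the growth hormone dependent factor, did not share the pattern of IGF2. Its level after joint scaling was 4.46 to 24.96 CPM in liver and 6.86 to 13.7 in fat, with overlapping ranges and a log2 fold change of -0.21 (SE 0.177, adjusted p = 0.277, edgeR), whose sign turned to 0.49 with total count scaling. Among the receptors, IGF1R, which passes on the signal of both factors, was higher in fat by a log2 fold change of 1.14 (SE 0.231, adjusted p = 4.04e-05, edgeR). IGF2R, the receptor that clears IGF2, was higher by 0.34 (SE 0.141, adjusted p = 0.0282, edgeR). INSR, the insulin receptor, was at -0.41 (SE 0.216, adjusted p = 0.0785, edgeR), which became -0.70 and passed the test without the 3 libraries led by few genes and turned to 0.08 with total count scaling.

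The carriers split between the tissues. IGFBP2 was lower in fat than in liver by a log2 fold change of -6.35 (SE 0.239), IGFALS, the subunit that stabilises IGF complexes in blood, of -5.01 (SE 0.167) and IGFBP4 of -1.92 (SE 0.163). IGFBP1, a carrier that insulin lowers, had 35785 counts in liver and 12 in fat, the latter from 6 of 16 libraries. In contrast, IGFBP6, which prefers IGF2 over IGF1, was higher in fat by 5.93 (SE 0.235), IGFBP5 by 4.42 (SE 0.281) and IGFBP7 by 1.93 (SE 0.108). The proteases and their inhibitors that set free or hold back IGF from its carriers were also higher in fat, with PAPPA at 3.97 (SE 0.488), STC1 at 3.73 (SE 0.291) and STC2 at 3.07 (SE 0.221), whereas PAPPA2 was at -0.04 (SE 0.267, adjusted p = 0.893, edgeR) and turned to 0.58 with total count scaling. PAPPA was low in both tissues, with at most 0.170 CPM in liver and 4.67 in fat, the latter in HFD replicate 2. STC1 and STC2 were low in liver, with at most 1.27 and 0.466 CPM.

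**Figure D4:**
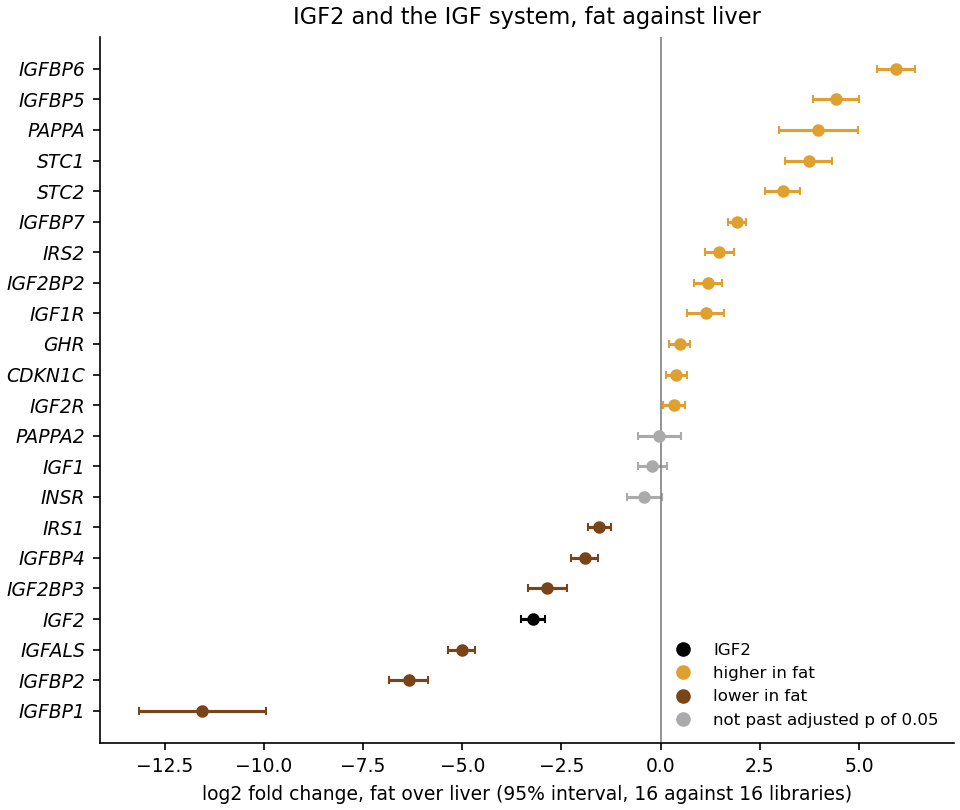
Log2 fold change of fat over liver for IGF2 and 21 other genes of the IGF system, with 95% intervals and a vertical line at 0, over 16 fat and 16 liver libraries. IGF2 lies at -3.21 among the genes lower in fat, 12 of the other genes are higher in fat, 6 lower and 3 did not pass the test, and the point of IGFBP1 rests on 12 counts in fat.

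Of the proteins that bind IGF2 messenger RNA, IGF2BP3 was lower in fat by a log2 fold change of -2.85 (SE 0.246) and IGF2BP2 higher by 1.19 (SE 0.167), while IGF2BP1 had 0 counts in every library. The adaptors of the receptors moved apart too, with IRS1 at -1.55 (SE 0.139) and IRS2 at 1.48 (SE 0.178). GHR, the growth hormone receptor, was higher in fat by 0.48 (SE 0.128) and CDKN1C, an imprinted cell cycle inhibitor, by 0.39 (SE 0.127). With total count scaling, or TMM within each tissue, 14 genes were called higher and 6 lower, IGF1 and PAPPA2 joining the higher ones. The direction of the 18 called genes held under every scaling tried, and their adjusted p in edgeR was at most 0.0282, that of IGF2R. The other scalings moved the median of all genes upward, to 0.64 with total counts, 0.59 with TMM within each tissue and 0.19 with the upper quartile. They could therefore turn only the 6 lower genes, and say nothing on the direction of the 12 higher ones. IGF2R (0.34), CDKN1C (0.39) and GHR (0.48) were smaller than the shift to 0.64. The call of IGF2R was lost with limma-voom (0.27, adjusted p = 0.0656) and with a replicate block (0.24, adjusted p = 0.0729, edgeR), where INSR was called lower in fat, which made 11 higher and 7 lower.

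None of these genes passed the test between HFD and LFD pigs. In liver 0 of 19 tested had an adjusted p under 0.05 in edgeR, DESeq2 or limma-voom, and 4 had an unadjusted p under 0.05 in edgeR, against 5.78% of all genes tested. These were PAPPA2 (log2 fold change -0.84, SE 0.238, adjusted p = 0.813), CDKN1C (-0.41, SE 0.164), GHR (-0.37, SE 0.173) and IGFBP6 (0.61, SE 0.256), the last 3 with an adjusted p of 0.839. PAPPA2 was at 0.826 to 2.44 CPM in HFD and 1.93 to 3.62 in LFD livers, ranges that overlap, with the highest value in LFD replicate 7. Without that library, led by few genes, again 0 of 19 passed in edgeR and 3 had an unadjusted p under 0.05. These were PAPPA2 (-0.76), CDKN1C (-0.43) and IGFBP6 (0.58), while GHR was at -0.31 (unadjusted p = 0.0982, edgeR). In fat 0 of 20 tested passed in edgeR, DESeq2 or limma-voom, and 1 had an unadjusted p under 0.05 in edgeR, against 6.65% of all genes. It was STC2, an inhibitor of the PAPPA proteases, at 0.75 (SE 0.229, adjusted p = 0.493), with 2.88 to 7.00 CPM in HFD and 1.82 to 4.41 in LFD fat. Without HFD replicate 2 and LFD replicate 4, again 0 of 20 passed in edgeR and 4 had an unadjusted p under 0.05, namely STC2 (0.63), IGFBP7 (0.28), PAPPA2 (-0.90) and IRS1 (-0.51). The median log2 fold change of the list was -0.03 in liver and 0.00 in fat, against 0.00 and 0.02 over all genes.

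IGF2R in fat, the receptor nearest to the handling of IGF2, was at 102.1 to 471.9 CPM in HFD and 103.2 to 187.7 in LFD pigs, with a log2 fold change of 0.50 (SE 0.251, adjusted p = 0.774, edgeR). The highest value was that of HFD replicate 2, and without it and LFD replicate 4 the HFD range was 102.1 to 211.9 CPM and the log2 fold change 0.16 (SE 0.165, adjusted p = 0.958, edgeR). IGFBP4 was at 84.0 to 363.4 CPM in HFD and 150.2 to 363.9 in LFD fat, with -0.53 (SE 0.266, adjusted p = 0.774, edgeR), or -0.49 without these 2 libraries. Neither difference held against the spread.

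The genes whose level followed IGF2 most closely were sought within each tissue by Spearman correlation over its 16 libraries. In fat these were SFSWAP, a splicing regulator, with a correlation of 0.89, SHB, an adaptor of tyrosine kinase signalling, with 0.89 and NIBAN2 with 0.88. Without HFD replicate 2 and LFD replicate 4, the correlation of NIBAN2 was 0.94 over 14 libraries. The most opposite were CX3CR1, the fractalkine receptor of monocytes and lymphocytes, with -0.88, TBX21, the T-bet transcription factor of lymphocytes, with -0.86 and ENSSSCG00000027013, which has no symbol in the names table, with -0.85. CX3CR1 was low in these libraries, at 0.624 to 4.36 CPM. These values are the extremes of 13082 genes that share the same libraries and scaling, of which 90% lay between -0.55 and 0.51, and they carry no test.

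**Figure D5:**
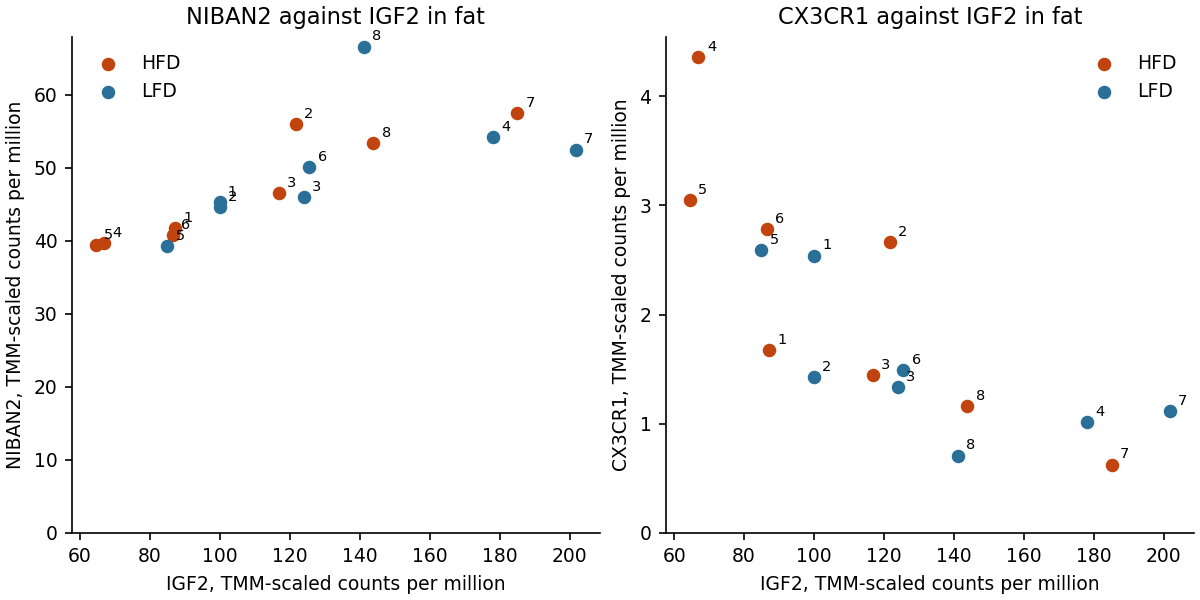
NIBAN2 and CX3CR1 against IGF2 in the 16 fat libraries, all in TMM-scaled CPM, with HFD and LFD libraries in different colours. NIBAN2 rises with IGF2 (Spearman correlation 0.88) and CX3CR1 falls with it (-0.88). HFD and LFD libraries overlap along both clouds, but not at every end. IGF2 is lowest in HFD replicates 5 and 4, and CX3CR1 is highest in HFD replicates 4, 5, 6 and 2.

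In liver the closest were SUSD4, a regulator of complement, with 0.80, SDHA, a subunit of succinate dehydrogenase, with 0.79 and ENSSSCG00000041180 with 0.79. The most opposite were ALMS1, a centrosomal protein, with -0.80, ENSSSCG00000040413 with -0.79 and RALGAPA1 with -0.79. The bulk of the 13051 genes (90%) lay between -0.45 and 0.45. SUSD4 was counted at 0.166 to 1.95 CPM only, while SDHA was at 279.5 to 390.1.

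Within the IGF system the correlations with IGF2 in fat ran from -0.41 for IGF2R to 0.69 for IGFBP2, with 0.55 for IGFBP4 and 0.54 for IGFBP5. In liver the highest was 0.59 for IGFALS. IGFBP2 was low in fat, with 1759 counts over the 16 libraries, at 2.20 to 11.9 CPM. The liver markers tested in fat, 8 of the 10, had correlations of 0.25 to 0.59 with IGF2 there, and of 0.44 (CYP2E1) to 0.73 (FGB) over the 14 libraries without HFD replicate 2 and LFD replicate 4, and their part in these values was not tested.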

How the data were processed

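RNA was isolated from liver and fat, and the authors made TruSeq v2 libraries, which keep no strand, and sequenced paired ends on a HiSeq system. The authors deposited whole-number counts per gene without normalization. The submitters' processing notes name FastQC, STAR, RSEM, DESeq2 and the build Sscrofa11.1; which tool made the counts is not given in the sources used here. All 48 columns were used and 0 left out, and the 2 runs of each liver library were added. Groups came from the labels, where the fat group stands under the name of another trait. Replicate numbers follow the order of the samples within each group. Each group held 8 libraries, numbered as separate replicates; liver and fat libraries may come from the same pigs.

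Counts were tested in R 4.3.3 with edgeR 4.0.16 (filterByExpr, TMM, robust quasi-likelihood test, Benjamini-Hochberg adjustment over all genes tested, threshold 0.05), per tissue and, for tissue and interaction, over all 32 libraries. IGF2 alone was also compared by exact two-sided permutation of the group means (scipy 1.17.1, Python 3.11.15). Correlations used log2 TMM-scaled CPM with a prior count of 1. Alternatives were DESeq2 1.42.0, limma-voom (limma 3.58.1), other scalings and filters, a replicate block, single runs, TMM within each tissue and leaving out each library. Leaving out 3 libraries led by few genes was chosen after seeing the data. The steps were tested on simulated data. Figures were drawn with matplotlib 3.10.9.

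Genes named were IGF2, a fixed IGF system list and, per tissue, the 3 genes most like and the 3 most opposite to IGF2. The gene and the lists were chosen with earlier results of these data known. A names table paired 15029 identifiers with symbols but listed that of IGF2 0 times, so its name was taken as given. Gene positions are those of RefSeq.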

Additional observations from a re-analysis of the deposited data

Results flagged for a closer look

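Of 8 checks for a library far from its group (4 groups, IGF2 as CPM of total counts and as TMM-scaled CPM), 1 stood out. In liver LFD replicate 7 IGF2 was at 528.9 CPM of total counts, against 675.3 or more in the other 7 LFD livers, a gap of 0.579 of the group's range. Chance marks about 1 in 20 such groups. The 10 most counted genes held 47.2% of the counts of that library, and its TMM-scaled IGF2 level was 760.4 CPM, inside the range of the other LFD livers. The part of those genes in the low share was not tested.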

How the results depend on the processing

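In liver, where no difference was called, the IGF2 log2 fold change of HFD over LFD was reversed by total count scaling, at 0.065, and the difference in means was 32.8 CPM on unscaled CPM. Leaving out single livers gave -0.11 to 0.0065, and -52.7 (without HFD replicate 3) to 3.53 CPM (without HFD replicate 6) for the means; the cause was not tested. In fat, leaving out single libraries gave -0.42 to -0.16 and the means -33.7 to -12.9 CPM, and for the interaction -0.38 (without fat HFD replicate 7) to -0.11 (without fat LFD replicate 7). Total count scaling gave -0.45 for the interaction. The adjusted p stayed within 0.893 to 0.992 in liver and 0.711 to 1.00 in fat over the alternatives with all libraries. The log2 fold change of fat over liver ran from -3.28 to -2.55, and from -3.29 to -3.17 with single libraries left out. All called genes between tissues split into 5520 higher and 5858 lower in fat with TMM, 8698 and 3007 with total counts, 8976 and 3363 with TMM within each tissue, and 6696 and 4716 with the upper quartile.

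With a replicate block the values were -0.05 in liver (adjusted p = 0.961, edgeR), -0.30 in fat (unadjusted p = 0.102 against 0.243 without the block, adjusted p = 0.799, edgeR), -0.25 for the interaction and -3.28 for the tissues, so no call of IGF2 changed. Exact sign flips within numbers gave a permutation p of 0.641 in liver and 0.117 in fat. Same-numbered HFD and LFD libraries deviated together with a mean correlation of 0.181 in fat, over 0.1 in 6 of 8 pairs, and 0.00596 in liver, and liver and fat libraries with 0.024 in HFD and -0.0466 in LFD pigs, so the numbers were not taken to pair libraries, although fat libraries of one number tended to deviate together (other pairs -0.0264, own number best in 2 of 8). Genes called by DESeq2 (5 in liver, 49 in fat, 45 for the interaction) did not include IGF2. Counting error of IGF2 was largest in fat HFD replicate 2.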
